A study of Schizosaccharomyces pombe with 4 samples.

Results

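The subject is the wild-type transcriptome of the fission yeast Schizosaccharomyces pombe in exponential growth, read as a ranking of gene levels. Its members were the gene models of at least 300 bp in the deposited table, 4898 of 5129 gene models in all. The limit on length was used because very short gene models carry FPKM values far above their own bounds. FPKM stands for fragments per kilobase of transcript, scaled to the mapped fragments of the library, so it is a level per length and can be compared between genes.

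The study sequenced total RNA from 4 strains, the knockouts of sfp1, ifh1 and fhl1 and the wild type, with 1 sample each, and the wild type alone is described here. Its cells were untreated, were harvested by filtration during exponential growth, and their RNA went into strand-specific libraries. The labels name neither the medium nor the mating type. The table holds 1 wild-type value per gene with a lower and an upper bound from the authors' software. No replicate error can be computed from this, no test was made, and the bounds are printed as the only measure of precision. Whether the bounds include variation between replicates is not stated. The depth behind the values is unknown.

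A dividing yeast cell spends most of its synthesis on making proteins, and the genes for ribosomal proteins and for glycolysis are known as the most strongly transcribed ones in fermenting yeasts. Each ribosome is built of a large and a small subunit, and fission yeast carries most of their proteins as pairs or triplets of genes. Genes for mating, meiosis, sporulation and starvation are known to be kept low while nutrients last. The nmt1 gene, whose name stands for no message in thiamine, and the other genes of thiamine synthesis are known to be repressed when thiamine is present.

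Levels spanned a 717464-fold range between the highest value and the lowest one above 0. The median was 63.7 FPKM, with 28.8 FPKM at the lower and 141 FPKM at the upper quartile. Most genes lay in a narrow middle band, with 2604 genes between 10 and 100 FPKM and 1422 genes between 100 and 1000 FPKM. At the top, 212 genes lay between 1000 and 10000 FPKM and 15 genes above that. These 15 genes held 15.1% of the summed FPKM, and the 212 below them held 51.5%. The total was thus concentrated in few genes: 104 genes, 2.12% of all, held as much as all other genes together, while the 2449 genes of lowest rank held 4.55%.

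Short genes need care in this ranking. For genes of 300 to 500 bp the deposited FPKM was a median 2.11 times the midpoint of its own bounds, against 1.22 times at 500 to 1000 bp and 1.00 times from 2000 bp on. The value lay above its upper bound in 699 genes and below its lower bound in none. Ranked by the midpoint in place of FPKM, 18 of the 30 most abundant genes stayed among the first 30, and 84 of the first 100 stayed among the first 100. The median length of the 100 most abundant genes was 498 bp, against 1178 bp for all genes. The midpoint is therefore given beside FPKM for the main results that rest on short genes.

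**Figure D1:**
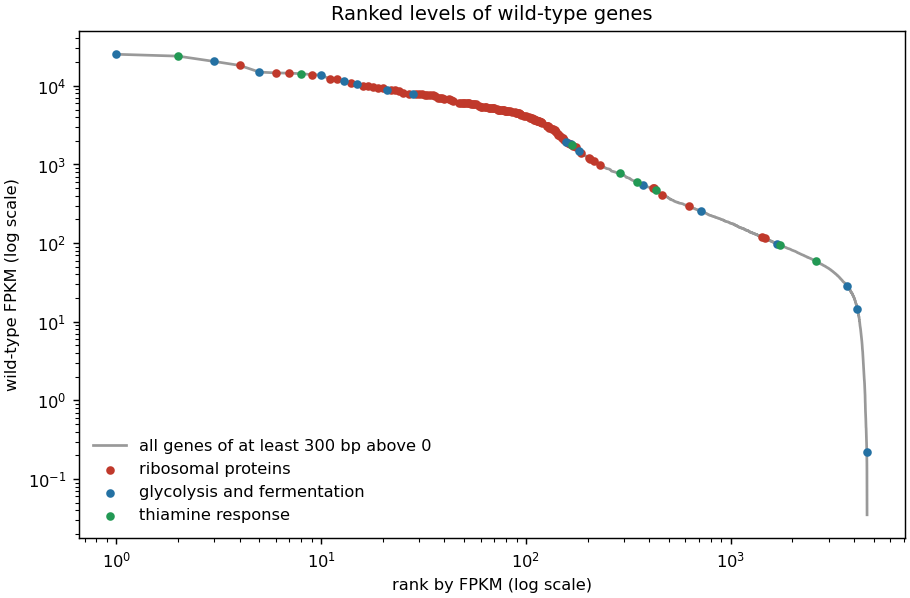
Wild-type FPKM of genes of at least 300 bp against their rank, both on log scales, for the genes above 0. The grey line is all genes, and the points are ribosomal protein genes (red), glycolysis and fermentation (blue) and the thiamine response (green); the first places are shared between these 3 groups, and the line drops steeply after the genes at about 10 FPKM.

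Promoter sequences of some of the most abundant genes are shown first, as examples of 2 of the elements whose shares are given with the motif results. They were chosen because they hold a match. The highest gene of each ribosomal subunit, rpl31 and rps20, has no HomolD match in the 120 bases before its gene start, and fba1 and pdc101 have a match to none of the elements searched. HomolD is a short element that takes the place of a TATA box in fission yeast ribosomal protein genes, and its letters were searched as CAGTCACA on both strands. The TATA box was searched as TATAAA on both strands. The sequences are the 120 bases before the gene start in RefSeq (ASM294v3), written 5′ to 3′ along the coding strand, with matches in capitals; TGTGACTG is HomolD read from the other strand. They show a ribosomal gene of each subunit, rpl35 (chrIII:89577-89696, minus strand) and rps7 (chrI:2242531-2242650, minus strand), with HomolD beginning 63 and 49 bases before the start.
rpl35: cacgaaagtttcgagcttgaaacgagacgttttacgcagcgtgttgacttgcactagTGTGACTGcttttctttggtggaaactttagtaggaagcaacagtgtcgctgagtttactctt
rps7: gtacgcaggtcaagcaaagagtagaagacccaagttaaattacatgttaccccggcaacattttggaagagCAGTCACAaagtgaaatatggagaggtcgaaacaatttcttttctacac

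The next 3 are the glycolytic gene at the head of the ranking, tdh1 (chrII:2807475-2807594, plus strand), and the 2 thiamine genes among the first 10, nmt1 (chrIII:1838295-1838414, plus strand) and thi2 (chrII:3940406-3940525, plus strand). Their TATAAA begins 38, 31 and 32 bases before the gene start.
tdh1: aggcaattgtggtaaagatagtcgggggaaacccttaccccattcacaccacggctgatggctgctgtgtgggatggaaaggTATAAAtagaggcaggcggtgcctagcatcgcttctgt
nmt1: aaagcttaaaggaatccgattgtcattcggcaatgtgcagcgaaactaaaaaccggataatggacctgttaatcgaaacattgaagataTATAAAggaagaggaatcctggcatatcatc
thi2: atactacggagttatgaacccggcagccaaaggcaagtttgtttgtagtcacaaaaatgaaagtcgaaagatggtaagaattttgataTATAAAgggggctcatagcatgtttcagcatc

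The last is tpi1 (chrIII:939793-939912, plus strand), the gene of triosephosphate isomerase, shown because it is the only glycolytic gene of the list with a HomolD match, 58 bases before its start.
tpi1: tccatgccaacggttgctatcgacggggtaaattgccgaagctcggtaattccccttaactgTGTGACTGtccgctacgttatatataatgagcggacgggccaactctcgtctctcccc

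The first place belonged to tdh1 (SPBC32F12.11, chromosome II 2807637 to 2808647), which encodes glyceraldehyde 3-phosphate dehydrogenase of glycolysis. It was listed at 25191 FPKM with bounds of 16205 to 24646, and it alone held 1.65% of the sum. The second was nmt1 (SPCC1223.02, chromosome III 1838485 to 1839525), an enzyme of the pyrimidine branch of thiamine synthesis, at 23865 FPKM with bounds of 15504 to 23585. The third was fba1 (SPBC19C2.07, chromosome II 1688367 to 1689443), fructose-bisphosphate aldolase, at 20434 FPKM with bounds of 11394 to 26270. The bounds of these 3 genes overlap, so that their order is not resolved, but they held the first 3 places by the midpoint as well.

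The fourth place shows the effect of length. The rpl31 gene (SPAC890.08, chromosome I 5018126 to 5018587), a large-subunit ribosomal protein gene with a coding length of 342 bp, was listed at 18191 FPKM, while its bounds were 3391 to 7564. By the midpoint it stood at place 18. Small-subunit rps20 was listed at 14607 FPKM with bounds of 3029 to 6497 and moved to place 31, and rpl35 was listed at 14490 FPKM with bounds of 3224 to 7261 and moved to place 23. The longer genes around them kept their places better. Pyruvate decarboxylase pdc101, which commits pyruvate to ethanol production, was listed at 14951 FPKM with bounds of 10990 to 16688. The thiazole synthesis gene thi2 was listed at 14274 FPKM with bounds of 6698 to 20479. Phosphoglycerate mutase gpm1 was listed at 13735 FPKM with bounds of 5581 to 14756.

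The 30 most abundant genes contained 19 ribosomal protein genes, and together these 30 held 23.7% of the sum. The others were 8 genes of glycolysis and fermentation, the 2 thiamine genes and tif512, one of a pair of genes for the translation factor eIF5A. Among the 8, enolase eno101 was listed at 11443 FPKM with bounds of 5777 to 16901. Pyruvate kinase pyk1 was listed at 10591 FPKM with bounds of 5877 to 15166, triosephosphate isomerase tpi1 at 8952 FPKM with bounds of 4066 to 10520, and phosphoglycerate kinase pgk1 at 7925 FPKM with bounds of 4136 to 11634. The enzymes from aldolase down to pyruvate decarboxylase were thus all represented among the first 30.

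Function lists were used to ask which activities hold the most transcripts. The 124 ribosomal protein genes of at least 300 bp, 2.53% of all genes, held 42.1% of the summed FPKM. Of these, 75 large-subunit genes held 24.3%, and 49 small-subunit genes held 17.8%. If the members of each list were moved together to their lower or upper bounds, scaled to the deposited value, the large-subunit share would lie between 16.5 and 30.8% and the small-subunit share between 11.6 and 23.1%. By the midpoint both subunits together held 31.5%. As a share of estimated fragments they held 15.1%. This estimate is the midpoint of the bounds times the coding length, and not a count of reads. The ribosomal proteins came first of all lists by FPKM and by midpoint, but by estimated fragments glycolysis and fermentation held more, 10.0%, than the large subunit at 8.24% or the small subunit at 6.85%.

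**Figure D2:**
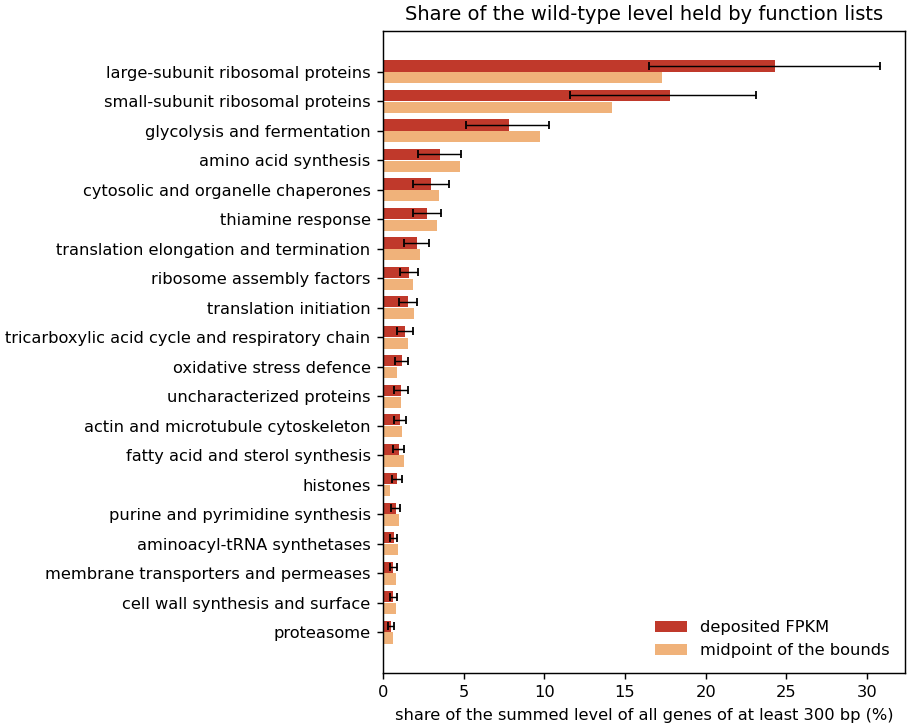
Share of the summed wild-type level, in percent, held by the 20 lists with the largest shares; red bars use the deposited FPKM and orange bars the midpoint of its bounds. Black lines run between the shares obtained with all members of the list at their lower and at their upper bounds, both scaled to the deposited FPKM. For short genes these scaled bounds can lie above the deposited ones. The large subunit stands at 24.3 and 17.3% and glycolysis and fermentation at 7.81 and 9.71%.

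Almost the whole ribosomal set lay near the top. By definition 10.0% of all genes are in the 490 most abundant ones, which start at 385 FPKM, and 121 of the 124 ribosomal protein genes were among them. The small subunit was the tighter set, with all 49 genes in it, a median of 5160 FPKM, or 3016 by the midpoint, and a range of 1094 to 14607 FPKM. The large subunit had 72 of 75 genes in it, a median of 4495 FPKM, or 2402 by the midpoint, and a range of 115 to 18191 FPKM. Its 4 highest members were rpl31, rpl35, ubi1 and rpl3001. The ubi1 gene encodes ubiquitin fused to a ribosomal protein and was listed at 13878 FPKM with bounds of 3385 to 7693, and rpl3001 at 12071 FPKM with bounds of 2093 to 4718. The small-subunit genes after rps20 were rps7 at 12240 FPKM, rps1502 at 9771 FPKM and rps1702 at 9339 FPKM.

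The lowest large-subunit members were rpl1201 at 119 FPKM and rpl1202 at 115 FPKM, both for protein uL11 of the ribosomal stalk base, and rpl1603 at 293 FPKM. The coding sequences of rpl1201 and rpl1202 are nearly identical: 96.4 and 99.1% of their 50-base windows occur elsewhere in the genome. No source used here says how reads were shared between such copies, so the levels of these copies are uncertain.

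Translation factors added to the ribosome's share. The ribosomal proteins with the initiation, elongation and termination factors, 165 genes, held 45.7% of the sum. By the midpoint these genes held 35.8%, and of the estimated fragments 20.4%. Among elongation and termination factors, tif512 and its partner tif51, both for eIF5A, were listed at 8030 and 4675 FPKM. The fungal elongation factor tef3 was listed at 5394 FPKM with bounds of 3505 to 7284, and tef5, a subunit of the exchange factor of eEF1A, at 4759 FPKM. Initiation was led by tif1, the helicase eIF4A, at 4280 FPKM with bounds of 2349 to 5942. The helicase sum3 was next at 1711 FPKM, then sce3, which is eIF4B, at 1452 FPKM and tif11, which is eIF1A, at 1276 FPKM. The initiation list had 22 of 28 genes among the 490 most abundant, and the elongation and termination list had 9 of 13.

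Ribosome assembly factors, which act in the nucleolus on precursor subunits, were far below the proteins they assemble. The 112 genes had a median of 146 FPKM and held 1.60% of the sum, with 15 genes among the 490 most abundant. The highest were snu13 at 1215 FPKM, the nucleolar protein gar2 at 928 FPKM, the pseudouridine synthase cbf5 at 881 FPKM and the snoRNP protein nop56 at 831 FPKM. The 57 mitochondrial ribosomal proteins of nuclear genes had a median of 94.5 FPKM, with mrp2 highest at 276 FPKM, and none was among the 490 most abundant. Their median thus lay near that of all genes, while the cytosolic ribosomal proteins lay far above it. Aminoacyl-tRNA synthetases, which charge tRNAs, had a median of 456 FPKM, with 16 of 21 among the 490 most abundant and the lysyl enzyme krs1 highest at 983 FPKM.

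Glycolysis and fermentation was the third list, with 19 genes and 7.81% of the sum, or 5.15 to 10.3% at the scaled bounds. Its median was 1808 FPKM, and 12 of 19 genes were among the 490 most abundant. Copies of the same enzyme stood at very different values. Next to tdh1, the second glyceraldehyde 3-phosphate dehydrogenase gene gpd3 was listed at 97.9 FPKM, a 257-fold difference. Next to pdc101, the other pyruvate decarboxylase genes were listed at 28.2 FPKM for pdc201, 14.5 FPKM for pdc202 and 0.222 FPKM for pdc102. The second enolase gene eno102 was listed at 0 with bounds of 0, which gives no limit on its level. Of the hexokinases, hxk2 stood at 1936 FPKM and hxk1 at 546 FPKM. In the hexose transporter family few genes had high levels, with ght8 at 621 FPKM, ght5 at 223 FPKM and ght2 at 134 FPKM. At the low end ght3 stood at 0.867 FPKM and ght7 at 0.

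The thiamine response list was small but held 2.74% of the sum in 8 genes, 57.0% of it in nmt1 alone. After nmt1 and thi2 came pho4, a thiamine-repressible acid phosphatase, at 1761 FPKM with bounds of 1055 to 2423, and thi4 of thiamine synthesis at 769 FPKM with bounds of 488 to 1014. The thiamine transporter thi9 stood at 590 FPKM. The transcription regulators thi1 and thi5 were much lower, at 94.3 and 59.0 FPKM. In all, 6 of the 8 were among the 490 most abundant.

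Biosynthesis followed. The 72 amino acid synthesis genes held 3.53%, had a median of 457 FPKM and had none listed at 0, with 41 among the 490 most abundant. They were led by the methionine synthase met26 at 5294 FPKM with bounds of 2932 to 7656, by ilv5 of the branched-chain pathway at 4704 FPKM with bounds of 2576 to 6645, by serine hydroxymethyltransferase shm1 at 4246 FPKM and by S-adenosylmethionine synthetase sam1 at 3218 FPKM. Genes that are often mutated as selection markers in fission yeast strains were present at leu1 with 913 FPKM, ura4 with 294 FPKM, ade6 with 276 FPKM and his3 with 396 FPKM; these 4 were chosen after their values were seen. Purine and pyrimidine synthesis had a median of 435 FPKM, led by gua1 at 1135 FPKM. Lipid synthesis had a median of 263 FPKM, led by the fatty acid desaturase ole1 at 3363 FPKM and the fatty acid synthase subunits fas1 at 1117 FPKM and fas2 at 941 FPKM.

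Chaperones held 2.96% of the sum in 51 genes. The cyclophilin ppi1 was highest at 6762 FPKM, with bounds of 2349 to 5293. The Hsp70 proteins sks2 and ssa2 stood at 6165 and 5744 FPKM, and hsp90 at 3966 FPKM. Oxidative stress defence held 1.14%, or 2.84% with members found by synonym as well and 0.524% of estimated fragments, with the peroxiredoxin tpx1 at 3982 FPKM, thioredoxin trx1 at 3256 FPKM and superoxide dismutase sod1 at 2257 FPKM, while catalase ctt1 stood at 39.9 FPKM. Respiration and the tricarboxylic acid cycle held 1.35%, with the ATP synthase subunit atp2 at 2049 FPKM and cytochrome c gene cyc1 at 1385 FPKM.

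In the lists of the cytoskeleton, the proton pumps and the flocculins, single members stood far above the rest. In the cytoskeleton list, actin act1 stood at 5154 FPKM with bounds of 2767 to 7111, profilin cdc3 at 1761 FPKM, cofilin adf1 at 1288 FPKM and tropomyosin cdc8 at 1056 FPKM, while the list's median was 76.8 FPKM. The plasma membrane proton pump pma1 stood at 3359 FPKM and held 48.4% of its list. Of the 10 histone genes, 9 were among the 490 most abundant, with the histone H3 gene hht2 at 2893 FPKM and the H2B gene htb1 at 2468 FPKM. Histone genes are short, and by the midpoint 60.0% of them were among the 490 most abundant, with a median of 355, against 1038 by FPKM. The flocculin pfl2 stood at 1732 FPKM and held 86.0% of the flocculin list, whose median was 19.9 FPKM.

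Regulators lay near the median of all genes and had few high members. The 85 protein kinases had a median of 59.9 FPKM, the highest being hal4 at 306 FPKM, and none was among the 490 most abundant. The 34 DNA-binding transcription factors had a median of 50.1 FPKM, with zip1 highest at 571 FPKM. TOR signalling genes had a median of 70.7 FPKM with a narrow range of 19.1 to 261 FPKM, the top being the transcription factor gene sfp1 itself. Replication and repair had a median of 54.3 FPKM, splicing 56.6 FPKM and mitotic control 46.6 FPKM. These medians lay beside the 63.7 FPKM of all genes.

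**Figure D3:**
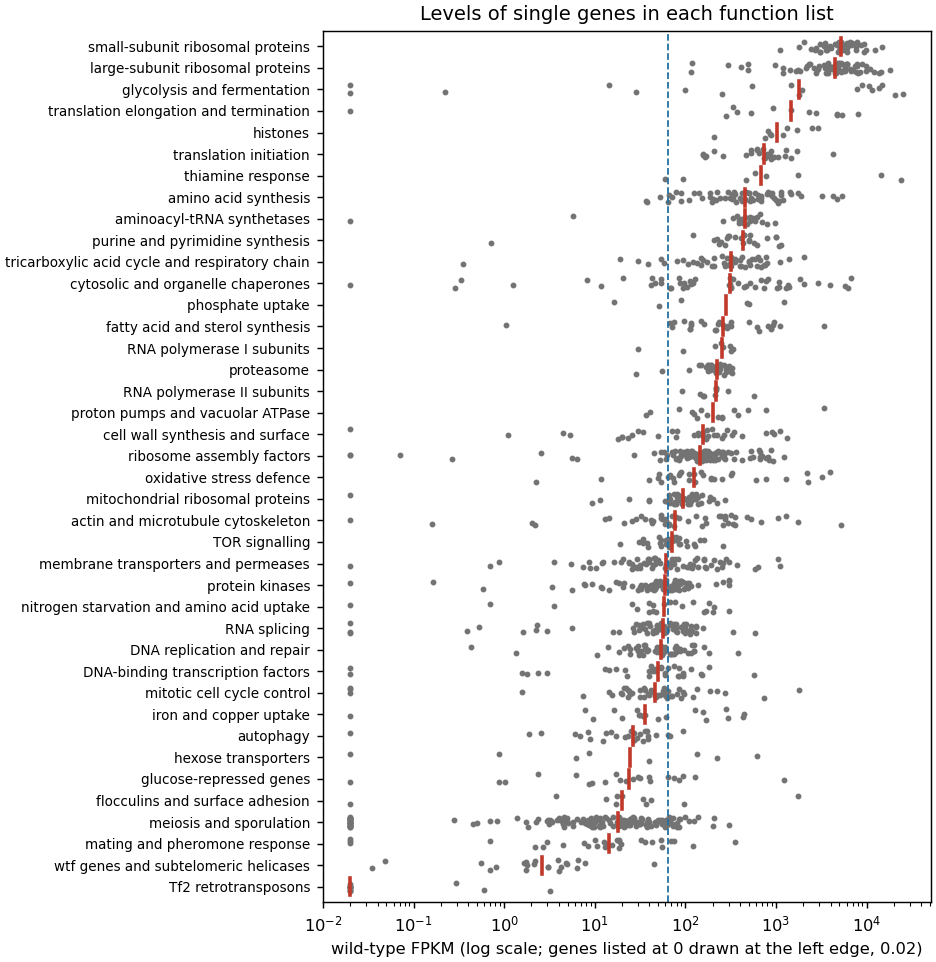
Wild-type FPKM of each gene (grey points, log scale) in 40 function lists ordered by their median (red bar), with genes listed at 0 drawn at the left edge and the median of all genes as a dashed blue line. Ribosomal proteins stand at the top with medians of 5160 and 4495 FPKM, and the lists of meiosis, mating, wtf genes and Tf2 elements stand at the bottom; single points far left of their list are described in the text.

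Of the 490 most abundant genes, 138 were in none of the lists chosen by symbol. The highest of these was tma19, the translationally controlled tumour protein, at 6494 FPKM with bounds of 2336 to 5331. The next were btf3, the beta subunit of the nascent polypeptide-associated complex, at 4130 FPKM, and the ubiquitin-conjugating enzyme ubc4 at 4071 FPKM. The lists chosen by symbol covered 1283 genes, 26.2% of all, and 75.2% of the summed FPKM. These lists were chosen with earlier results of these data known, so their coverage is partly set by that choice.

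Promoters of the most abundant genes held HomolD and HomolE more often than the rest, over a window of 250 bases before to 50 bases after the gene start in RefSeq. HomolD was found in 80 of 124 ribosomal protein promoters, 64.5%, against 2.58% of all promoters. With 1 mismatch allowed it was found in 96.0% of ribosomal protein promoters and in 783 of all 4882 promoters. The matches lay close to 1 place, with a median start 51 bases before the gene start and quartiles at 57 and 47 bases. The related element HomolE, which is known to act with HomolD, was found in 30.6% of ribosomal protein promoters, against 1.23% of all. Among the 490 most abundant genes HomolE was found in 8.37%, and without the ribosomal proteins in 1.08%. In the genes outside the 490 it was found in 0.433%. Its higher share thus lay mostly in the ribosomal set.

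The match did not follow the level within the ribosomal set. Ribosomal protein genes with HomolD had a median of 4723 FPKM, against 4917 FPKM for the 44 without a full match. Outside the ribosomal set, 46 promoters held HomolD, and 23 of those genes were among the 490 most abundant. Among the abundant genes that are not ribosomal, 6.23% of promoters held it, against 0.569% of the genes outside the 490 most abundant. TATAAA was found in 30.0% of the 100 most abundant genes and in 28.2% of ribosomal protein promoters, against 48.2% of all promoters. Among the 490 most abundant genes it was found in 41.2%, and without the ribosomal proteins in 45.5%, so that the lower share lay mostly in the ribosomal set. In glycolysis and fermentation it was found in 47.4%. A match of letters is a description of the sequence and not evidence that the site is used.

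Abundant genes shared other sequence features that the ranking did not use. Their transcripts had shorter leaders. The median annotated 5′ UTR was 23.0 bases in the 100 most abundant genes, against 102 bases in all genes that have one. It was 21.0 bases in the ribosomal protein genes and 67.0 bases in glycolysis and fermentation. In the 490 most abundant genes it was 48.0 bases, or 71.0 bases without the ribosomal proteins. An A stood 3 bases before the start codon in 88.0% of the 100 most abundant genes, against 60.6% of all genes. Codon use was also shifted. Of all lysine codons, 88.3% were AAG in the 100 most abundant genes, against 37.4% in all genes. Asparagine was AAC in 80.5% against 33.9%, arginine CGT in 72.7% against 30.8%, and phenylalanine TTC in 69.6% against 28.1%. The 100 most abundant genes include 76 ribosomal protein genes, which are short and basic, so these shares describe that set to a large part. In the 490 most abundant genes the same shares were smaller but still above those of all genes, at 62.1% for AAG, 52.8% for AAC, 62.4% for CGT and 45.7% for TTC.

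At the other end, 273 of the 4898 genes were listed at 0, which is 5.57%, and 370 were under 1 FPKM, which is 7.55%. Of the genes at 0, 269 also had an upper bound of 0, so that the table gives no limit for them. Their median length was 891 bp, and 125 of them were at least 1000 bp long. A value of 0 in such a table can stand for a gene without transcripts or for an estimate that was not made, and the values alone do not tell these apart. All 11 mitochondrial gene models in the table were listed at 0, although mitochondrial transcripts are known to be abundant in growing yeast.

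The longest genes listed at 0 were retrotransposons. Of the 13 Tf2 elements, 10 were listed at 0, among them the 10 longest genes at 0 in the table, Tf2-1 to Tf2-9 and Tf2-12, each 4002 bp long. The other 3 were Tf2-11 at 3.23 FPKM, Tf2-10 at 0.598 FPKM and Tf2-13 at 0.296 FPKM. Tf2 elements are nearly identical copies, and all 50-base windows of the 10 elements at 0 occur elsewhere in the genome. In Tf2-11, the highest of the 13, 90.9% of windows occur elsewhere.

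Values of 0 were frequent among genes that are mostly repeated. Of 69 genes with more than 90% of their 50-base windows present elsewhere, 52 were listed at 0, or 75.4%, against 4.26% of the 4690 genes without any such window. Between these, 28.6% of 35 genes with more than 50 and up to 90% of repeated windows were at 0, but 1.08% of the 93 genes with fewer, whose median was 173 FPKM. The 17 remaining genes of the first class reached at most 119 FPKM, the value of rpl1201. They include the ubiquitin gene ubi4 at 77.8 FPKM and rpl1202 at 115 FPKM. The eEF2 genes eft201 and eft202, with 88.0% of such windows, stood at 284 and 374 FPKM, below the 5394 FPKM of tef3. The eEF1A genes, with 74.4 to 79.7% of such windows, stood at 2306 FPKM for tef101, 1455 FPKM for tef103 and 915 FPKM for tef102. The part of read sharing between copies in these values was not tested.

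Position on the chromosome also went with values of 0. Within 25 kb of a chromosome end, 20 of 29 genes were listed at 0, or 69.0%, and from 25 to 50 kb 29 of 54 genes, or 53.7%. The share was 15.5% from 50 to 100 kb, 5.86% from 100 to 200 kb and 4.17% beyond. The ends of chromosomes I and II carried these genes, with 47.6 and 55.4% at 0 within 100 kb, against 4.92% within 100 kb of the ends of the assembled chromosome III, which lie next to ribosomal DNA. Subtelomeres are rich in repeated genes, and among genes without any repeated window 15.6% of 109 genes within 100 kb were listed at 0, against 3.99% of 4581 genes farther in. The gene with the lowest value above 0 was the telomere-linked helicase tlh1 at 0.0351 FPKM on chromosome I, followed by tlh2 at 0.0489 FPKM on chromosome II, with 99.1 and 97.4% of repeated windows.

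Genes with introns were less often listed at 0. The share was 8.11% of 2639 genes with 1 coding exon, 3.42% with 2, 1.97% with 3 and 0.629% with 4. With 5 it was none of 159 genes, and with 6 or more 0.595% of 168 genes. The share under 1 FPKM was 9.74% with 1 coding exon, 1.26% with 5 and 4.17% with 6 or more. Among genes without repeated windows the share at 0 was 6.62% with 1 coding exon and 1.59% with 2 or more. The difference was present in short and in long genes, at 2.80% with 2 or more exons against 10.9% with 1 exon under 1200 bp, and at 1.45% against 5.45% from 1200 bp on. Median levels did not run the same way: they were 64.0 FPKM with 1 coding exon and 63.7 FPKM with 2 or more, and 37.2 FPKM with 6 or more.

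**Figure D4:**
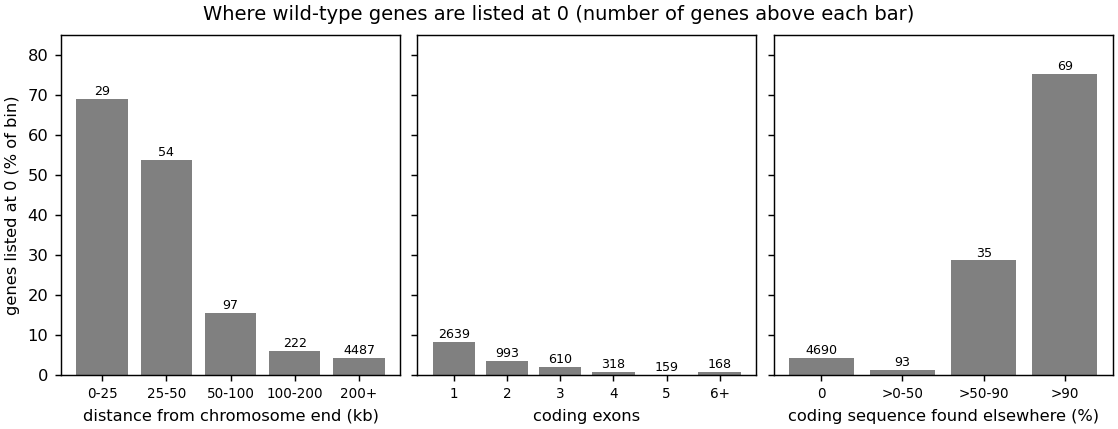
Share of genes listed at 0 FPKM, in percent of the genes in each bin, by distance from the nearer chromosome end, by number of coding exons and by the share of the coding sequence found elsewhere in the genome; the number above each bar is the number of genes in the bin. The share is 69.0% next to the ends and 75.4% in genes that are almost wholly repeated, against 4.17 and 4.26% in the bins at the other end.

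Of the genes at 0, 200 had no repeated window. Lists of genes usually off in growth are given first, and the values do not tell whether a 0 in them differs in kind from a 0 in other genes. The meiosis and sporulation list had 21 of 166 genes at 0, or 12.7%, against 5.57% of all genes, and a median of 18.1 FPKM. Among them were rec24 of meiotic recombination, the sporulation gene meu10 and the meiotic kinase gene mug27. The list was not uniformly low, with spo20 at 305 FPKM, isp7 at 205 FPKM, isp6 at 204 FPKM and spo15 at 138 FPKM; spo20 encodes a phospholipid transfer protein that is also needed in growth. Mating genes had a median of 14.5 FPKM with 3 of 30 at 0. The highest were the protease sxa1 at 356 FPKM, cfr1 at 122 FPKM, the GTPase ras1 at 75.6 FPKM and the pheromone receptor map3 at 70.0 FPKM. The regulators of sexual development ste11 and mei2 stood at 43.1 and 8.32 FPKM, both picked after their values were seen.

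Lists of starvation responses differed from each other. Glucose-repressed genes had a median of 24.1 FPKM, with fbp1 of gluconeogenesis at 26.3 FPKM. An exception was the aldehyde dehydrogenase atd1 at 1212 FPKM, which held 62.9% of the list. Their lowest were atd3 at 0, ght3 at 0.867 FPKM and mel1 at 1.02 FPKM. Autophagy genes had a median of 26.1 FPKM, with atg8 highest at 94.5 FPKM and atg43 at 0. The list of nitrogen starvation and amino acid uptake had a median of 57.7 FPKM, near that of all genes. In it the ammonium transporter amt1 stood at 306 FPKM, while amt2 stood at 0.701 FPKM and amt3 at 0. Iron and copper uptake had a median of 36.1 FPKM, with the iron uptake pair fio1 at 432 FPKM and fip1 at 284 FPKM. Phosphate uptake was higher, with pho84 at 1235 FPKM and a median of 282 FPKM. The wtf genes, which are meiotic drivers, had a median of 2.60 FPKM together with the subtelomeric helicases, with wtf14 highest at 44.8 FPKM. Uncharacterized proteins were listed at 0 in 56 of 309 cases, or 18.1%.

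Other genes at 0 belong to functions that every growing cell uses. The following were chosen after their values were seen, and none has a repeated window. The release factor erf1, which ends translation, was listed at 0, while its partner sup35 stood at 528 FPKM. Glutaminyl-tRNA synthetase qrs1 was listed at 0, while 19 of the 21 synthetases of the list stood above 100 FPKM. The main alcohol dehydrogenase adh1, the splicing helicase cdc28, the decapping enzyme dcp2, the replication protein cdc23, the stress kinase sty1 and the ribosome assembly factors mpp10 and sda1 were listed at 0 as well. For these genes a listed 0 is not read as silence here.

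The same held for some values just above 0. After tlh1 and tlh2 the lowest were rrp2 at 0.0663 FPKM, the ribosome assembly factor utp4 at 0.0716 FPKM, the kinesin klp8 at 0.105 FPKM, SPAC926.02 at 0.125 FPKM and icl1 at 0.147 FPKM. Next were the mRNA 3′ end factor cft2 at 0.152 FPKM, mcb1 at 0.153 FPKM and the histone acetyltransferase rtt109 at 0.157 FPKM. The lower bound of each of these 10 genes was 0, and the upper bounds lay between 0.124 and 0.473. Unlike most genes listed at 0, these genes thus carry an upper limit.

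Protein complexes give a scale for such single low values, because their subunits are often made in similar amounts. In 10 of 13 complexes, no counted subunit lay under 10% of the median of its complex, and 3 of the 116 counted subunits did. Some complexes with a subunit listed at 0 were not among the 13, such as the exocyst (sec3), TFIID (taf4) and Mediator (rox3). The count therefore does not describe complexes in general. Among all genes, 7.55% were under 1 FPKM and 5.61% from 1 to 10 FPKM. No limit relative to a median was applied to all genes. The 14 core subunits of the proteasome lay between 168 and 329 FPKM. The 16 regulatory subunits counted lay between 147 and 291 FPKM, without Rpn5, whose genes rpn501 and rpn502 are near-identical copies listed at 28.7 and 55.1 FPKM. The MCM helicase of replication lay between 58.2 and 118 FPKM, and eIF3 between 259 and 1042 FPKM. In the other 3 complexes a single counted subunit lay under that limit. The chaperonin subunit cct4 was listed at 1.25 FPKM, while the other 7 subunits lay between 306 and 444 FPKM. In the origin recognition complex orc1 was listed at 1.35 FPKM, while the others lay between 31.1 and 58.0 FPKM. In the ATP synthase atp7 was listed at 19.1 FPKM, while the others counted lay between 208 and 2049 FPKM. The mitochondrial gene atp6 was left out of this count, and it was listed at 0 like all mitochondrial gene models. In RNA polymerase I, rpa43 stood at 30.2 FPKM, just above the limit, while the others lay between 214 and 334 FPKM. By the midpoint rpa43 stood at 19.3, under 10% of the complex median of 205. On that scale 9 of 13 complexes had no counted subunit under the limit and 4 had one. The complexes were listed after the table had been seen.

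**Figure D5:**
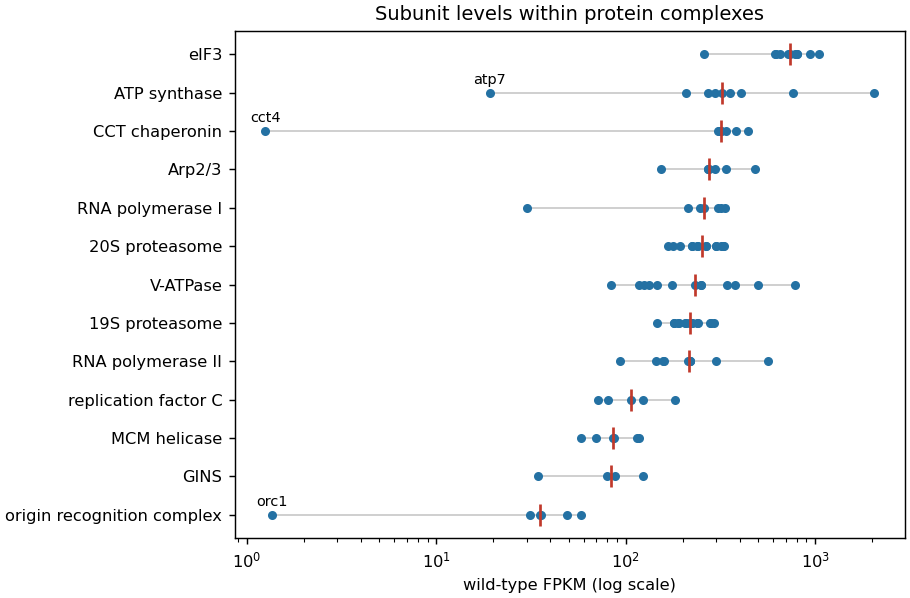
Wild-type FPKM (log scale) of each counted subunit (blue points) of 13 protein complexes, ordered by the median of the complex (red tick). Subunits under 10% of that median are named: cct4 at 1.25, orc1 at 1.35 and atp7 at 19.1 FPKM. The other counted subunits of their complexes start at 306, 31.1 and 208 FPKM. Mitochondrial atp6, listed at 0, was not counted.

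Gene copies with different sequences differed in how evenly their transcript levels were divided. The Hsp70 gene ssa2 stood at 5744 FPKM with bounds of 3177 to 8306, while ssa1 stood at 53.1 FPKM, a 108-fold difference. The proton pump pma1 stood at 3359 FPKM, while pma2 stood at 36.7 FPKM, a 91.4-fold difference. Copies with nearer levels were the histone H2A genes, hta2 at 863 FPKM and hta1 at 818 FPKM, and the alpha tubulins, nda2 at 532 FPKM and atb2 at 352 FPKM. The 14-3-3 proteins rad24 and rad25 stood at 1795 and 736 FPKM. The 3 genes of ribosomal protein uL2 stood at 4556 FPKM for rpl801, 1740 FPKM for rpl802 and 1194 FPKM for rpl803, and the 3 genes of eS4 at 4426 FPKM for rps401, 3514 FPKM for rps403 and 2434 FPKM for rps402. In tdh1 and gpd3, 24.3 and 24.4% of windows occur elsewhere; in ssa2 and ssa1 under 1% do, and in pma1 and pma2 none.

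The 3 chromosomes contributed about in proportion to their genes. Chromosome I held 45.5% of the genes and 44.4% of the summed FPKM, chromosome II 36.4 and 36.2%, and chromosome III 17.9 and 19.4%. Median levels were 62.8, 66.3 and 61.0 FPKM.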

How the data were processed

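Each strain has 1 column of FPKM in the table that the authors deposited, and beside it a low and a high bound in FPKM. The submitters' processing notes list Cufflinks 2.1.1 and TopHat2 2.0.9, with no roles given. The build, the annotation and the use of strand in counting are not stated, nor is how the 2 replicates that the table's title mentions were combined; depth is unknown. Gene lengths are coding lengths, since 99.5% are multiples of 3.

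The wild-type columns of 4898 genes of at least 300 bp were ranked with Python 3.11.15 and pandas 2.3.3. The 9 columns of knockout values were not used. Of 5129 gene IDs, 5111 were found in RefSeq (ASM294v3), 4955 with the same coding span, and symbols, products, exons and promoters were taken from there; table starts were made 1-based. Lists were chosen by symbol or, for 5, by words in the RefSeq product, and may share genes. The members and lists were chosen with earlier results of these data known. Named are the 30 highest genes, the 4 highest of each list and, for lists usually off in growth, the 3 lowest, the 10 longest genes at 0, the 10 lowest above 0 and the members of copy families; some lists are given with fewer. Further genes, among them thi9, fbp1, sup35 and the subunits of complexes, were picked after their values were seen. Repeated sequence is the share of 50-base windows of the coding exons found elsewhere in the genome on either strand. Share, ranking and repeat functions were tested on simulated data. No comparison between groups and no test was made.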

Additional observations from a re-analysis of the deposited data

How the results depend on the processing

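List shares, list medians, shares of lists in the top of the ranking and the counts of low genes were recomputed with other minimum lengths, and all of these but the low-gene counts with the midpoint of the bounds. Shares were also recomputed as estimated fragments, without the most abundant gene and with synonyms. Copy ratios, motif shares and medians by exon number and distance from the ends had the midpoint only, apart from 1 mismatch for HomolD; codon shares, leader lengths and shares at 0 by class were not recomputed. A share of the sum or a median counted as moved outside the range that the bounds, scaled to the deposited FPKM, give. For a copy ratio the scaled bounds of the highest copy alone were used. Counts, shares of lists in the top of the ranking and motif shares counted as moved when they changed by more than 1.5 times. Under these rules 517 of 695 recomputed values stayed and 178 moved. With no minimum length the very short genes dominated: the large subunit held 57.9% of the sum, glycolysis 3.66%, amino acid synthesis 1.66%, chaperones 1.41% and thiamine 1.28%, the 100 most abundant genes held 71.4% (49.1% in the main ranking), and 11 genes reached 50%. From 500 bp on the shares were 14.1% for the large subunit, 9.32% for the small subunit, 11.8% for glycolysis, 5.32% for amino acid synthesis and 4.13% for thiamine. From 1000 bp on they were 1.45% for the large subunit, 17.4% for glycolysis, 9.01% for amino acid synthesis, 5.29% for chaperones and 4.96% for thiamine, with 125 genes at 0 and 191 under 1 FPKM; the small-subunit list then has no member. As estimated fragments the large subunit held 8.24%, the small subunit 6.85%, amino acid synthesis 6.35% and chaperones 4.53%, and 200 genes reached 50%. With 1 mismatch HomolD was found in 43.9% of the promoters of the 490 most abundant genes, against 20.6% with all letters. With synonyms 4 list shares moved: RNA polymerase I to 0.905%, oxidative stress defence to 2.84%, meiosis to 0.610% and nitrogen starvation to 0.168%. Of the 10 lists with the largest shares, 8 to 10 stayed in that group under the other lengths and the midpoint. No paired analysis was possible because the wild type has 1 sample and no comparison between groups was made. Without counts, a value of 0 whose upper bound is also 0 carries no limit.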

Other observations

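Gene models under 300 bp were left out of the ranking, and 38 of these 231 were listed at 0. They held 53.1% of the summed FPKM of the whole table but 2.72% of the summed midpoints of the bounds. The ribosomal protein gene rpl4101, with a coding length of 78 bp, was listed at 1044820 FPKM with bounds of 15.2 to 91.3. Its copy rpl4102 was listed at 318600 FPKM with bounds of 0 to 42.6. The ribosomal protein gene rpl39, of 156 bp, was listed at 64765 FPKM with bounds of 306 to 620. Among slightly longer models the 2 scales were nearer to each other: rps2502, of 270 bp, was listed at 29630 FPKM with bounds of 2533 to 5864, and rps21, of 264 bp, at 31635 FPKM with bounds of 2468 to 5627.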
